A study of Citrus sinensis with 5 samples.

Results

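In leaves of sweet orange (Citrus sinensis), 174 of 28766 listed genes had nearly the same transcript level in every library, whether the seedlings had been kept at pH 2.5 or at pH 6. These genes were chosen by their measured values, from the column of normalized counts that the authors deposited (called Normalized below: reads counted on a gene, multiplied by a factor that puts the libraries on a common scale). A gene was kept when its mean over the 5 libraries was at least 1000 and its highest library was at most 15% above its lowest (the ceiling). Of the genes listed, 4074 reached the mean of 1000, and the 174 steady genes were 4.27% of those. Their steadiness on this scale is therefore how they were found and is described without a test.

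The libraries came from seedlings treated for 9 months, 2 at low pH (pH 2.5) and 3 at pH 6, the control. Each library is a biological replicate that pooled leaves of 4 seedlings, and the labels name no genotype or cultivar beyond the species. Library totals were 20178803 and 21505928 counts at low pH, and 18710578, 17734326 and 17224516 counts in the controls. The steady genes had between 859 and 16857 counts in a library. Gene names do not stand beside the identifiers in the files, and 0 identifiers matched the RefSeq gene table at hand, so the leaf identity of the samples was not checked against marker genes and the steady genes are given by identifier and position. Positions are those of the authors' files, with a genome build not given in the sources used here, and no sequence of these genes is shown.

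A plant keeps a part of its transcripts at a similar level across tissues and treatments, chiefly those for basic cell functions such as protein synthesis and turnover, the cytoskeleton and energy supply. Genes of that kind serve as references when a transcript is measured against another, as in quantitative PCR. In RNA sequencing a level is always relative to the other transcripts of the library, so that a gene is steady only on a stated scale. In bulk leaf RNA, fewer cells of a type and less RNA per cell cannot be told apart.

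The steadiest gene was Cs4g18680, on chromosome 4 (18242274 to 18248694, plus strand), whose highest library was 1.04 times its lowest. Its Normalized values were 1930 and 1864 in low pH leaves, against 1853, 1894 and 1894 in control leaves. The highest library was a low pH one and the lowest a control, and the groups overlapped. Cs2g08780, on chromosome 2 (5795969 to 5825713, plus strand), had 1750 and 1706 at low pH, against 1694, 1675 and 1699 in controls. Here both low pH libraries lay just above every control, with a highest to lowest ratio of 1.04. Its locus overlaps 1 other listed gene, which was at 0 in every library.

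Cs6g21650, on chromosome 6 (20720312 to 20725717, minus strand), had Normalized values of 1879 and 1832 in low pH leaves, against 1803, 1789 and 1800 in control leaves. Cs4g17410, on chromosome 4 (17129627 to 17134468, plus strand), had 1848 and 1794 at low pH, against 1871, 1887 and 1847 in controls. Cs5g26590, on chromosome 5 (29394847 to 29402267, minus strand), had 1780 and 1833 at low pH, against 1875, 1840 and 1806 in controls. Low pH was above all controls in Cs6g21650, while the groups overlapped in Cs4g17410 and Cs5g26590. For these 5 genes the variance of the counts over the libraries was 0.468 to 0.752 times the variance that counting alone gives, a range set by picking the smallest ratios.

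Most of the steady genes varied more than that. The ratio of the highest to the lowest library had a median of 1.12 over the 174 genes, with 51 genes no more than 10% and 2 no more than 5% above their lowest library. The variance of their counts was 3.30 times the counting variance in the median gene, under 1 in 11 genes and as much as 53.2 in the most abundant. In the 3900 other genes with a mean of at least 1000, the median was 76.2 times. The rule fixes that the second value is larger.

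**Figure D1:**
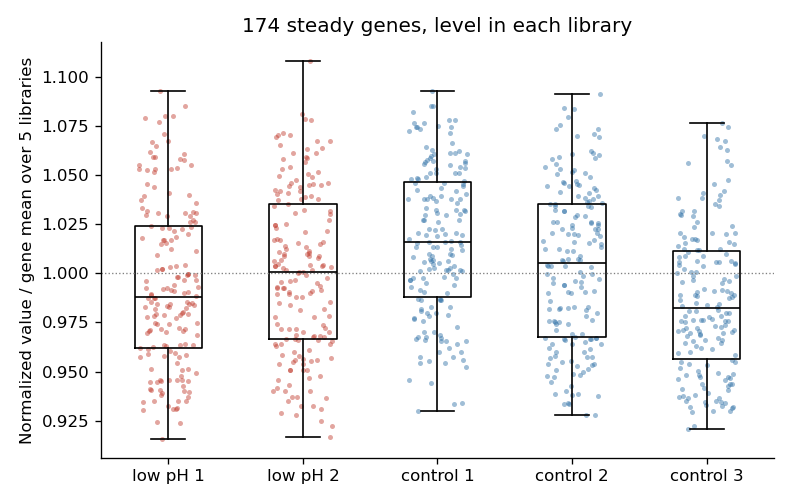
Normalized value of each of the 174 steady genes divided by that gene's mean over the 5 libraries, for low pH libraries (red) and control libraries (blue). Boxes are medians and quartiles and whiskers reach the lowest and highest gene; the medians run from 0.982 in control replicate 3 to 1.02 in control replicate 1, with the low pH libraries at 0.988 and 1.001 between them.

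On the Normalized scale the mean at low pH was above the control mean in 76 steady genes and below it in 98. Among all genes with a mean of at least 1000 it was above in 1801 and below in 2273. The median ratio of low pH to control in the steady genes was 0.989, with a range of 0.883 to 1.12. With counts scaled by library totals the low pH mean was above in all 174, which follows from the change of factors described below. Control replicate 1 was the highest library in 28.2% of the steady genes and 29.7% of all genes of that abundance, and control replicate 3 in 9.20% and 11.0%. Control replicate 3 was the lowest in 25.3% of the steady genes and 16.5% of all, and control replicate 1 in 11.5% and 8.59%. Low pH replicate 2 was the lowest in 19.5% of the steady genes and 36.4% of all, and the highest in 22.4% and 27.5%.

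By edgeR's quasi-likelihood test 0 of the 174 steady genes differed between low pH and control at an adjusted p under 0.05, where 15.4% of the 16946 genes tested did. At an unadjusted p under 0.05 the count was also 0, and DESeq2 called 0. The rule used this same contrast, so nothing is read from that count. The number called among all genes depended on single libraries: it was 2615 of 16946 over all libraries, 74 without control replicate 3, 322 without control replicate 2, 364 without low pH replicate 2 and 1033 without control replicate 1. The order of the libraries within the ceiling was counted as well. In 45 steady genes every low pH library lay on one side of every control library, which is 25.9% of the set; low pH was higher in 22 and lower in 23. The background for genes with a mean of at least 1000 was 61.8%. With 2 and 3 libraries such an order also arises in some genes without any difference. The rule also holds the groups close, so nothing is read from this share either.

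The highest ratio of low pH to control in the set, 1.12, belonged to a gene at the edge of the rule. Cs7g29380, on chromosome 7 (29679219 to 29684570, minus strand), had Normalized values of 2287 and 2347 in low pH leaves, against 2127, 2051 and 2042 in control leaves. Both low pH libraries were above every control, averaging 2317 ± 42.2 (low pH, SD, n = 2) and 2073 ± 46.5 (control, SD, n = 3). The lowest ratio, 0.883, was that of Cs8g14490, on chromosome 8 (17543439 to 17556798, plus strand), which had 2022 and 2033 at low pH, against 2316, 2320 and 2256 in controls. There both low pH libraries were below every control; this locus overlaps Cs8g14500 on the opposite strand, which had 41.1% of its mean. Neither gene passed edgeR's test. The other gene named as just inside the ceiling, Cs9g19370 on chromosome 9 from 18306190 to 18312001, had 4811 and 5531 at low pH, against 5138, 5352 and 4811 in controls. In that gene low pH replicate 1 was level with the lowest control and low pH replicate 2 was the highest library.

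Just outside the ceiling stood Cs4g08970, with 1810 and 2002 at low pH, against 2005, 1994 and 2082 in controls, and Cs8g12890, with 994 and 1097 at low pH, against 1143, 1036 and 1090 in controls. At the lower limit on abundance, Cs9g06980 and Cs1g16500 were just inside, with means of 1021 and 1023. Cs7g24750 and Cs3g17250 were within the ceiling and just below the limit, with means of 989.6 and 990.7.

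Whether these genes were steady depended on the scale. The authors' factors multiply low pH counts by 0.877 and 0.805 and control counts by 1.11, 1.12 and 1.12. As a share of all gene counts, the 174 genes together took 2.06% and 2.12% in the low pH libraries, against 1.79%, 1.85% and 1.86% in the control libraries. Both low pH shares were above every control share, at 2.09% ± 0.0439 (SD, n = 2) and 1.84% ± 0.0395 (SD, n = 3). Scaled by library totals, all 174 genes were higher on average at low pH, with a median ratio of 1.13 and a range of 1.01 to 1.27, and only 33 stayed within the ceiling. That scaling moved the median log2 ratio of all genes with a mean of at least 1000 to 0.12, against -0.07 with trimmed-mean (TMM) scaling. A change of scale multiplies all genes of a library by the same number. With ratios held near 1 by the rule, the higher means of all 174 genes and their higher shares follow from the factors. Nothing is read from either, and the share of all genes of that abundance that were higher on that scale was not counted.

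The rule applied to counts scaled by library totals found 196 genes, of which 33 were among the 174. These 33 made up 16.8% of that set and 19.0% of the steady genes. Scalings that give little weight to the most abundant genes found nearly the same set as the authors' factors. With TMM factors 187 genes were steady, 162 of them shared, or 86.6% of that set and 93.1% of the 174. With upper quartile factors 158 of 181 were shared and with median ratio factors 150 of 182.

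**Figure D2:**
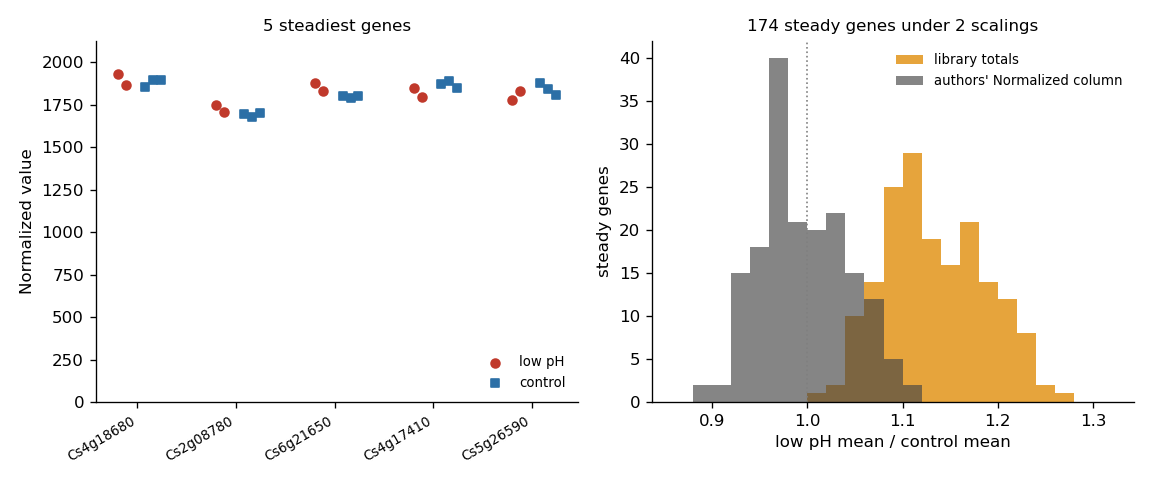
Left, Normalized values of the 5 steadiest genes in low pH (red circles) and control (blue squares) libraries, 1 point a library. Right, number of steady genes by the ratio of the low pH mean to the control mean, on the authors' Normalized scale (grey, median 0.989) and with counts scaled by library totals (orange, median 1.13, all genes above 1).

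The most abundant steady gene by Normalized value was Cs8g05340, on chromosome 8 (2947718 to 2953196, plus strand). It had 12043 and 13563 at low pH, against 11854, 11936 and 11810 in controls, which averages to 12803 ± 1075 (low pH, SD, n = 2) and 11867 ± 64.0 (control, SD, n = 3). Low pH replicate 2 was the highest library and the controls lay close together below both low pH libraries. By mean Normalized value the gene ranked 147 of all listed genes. It was the 1 steady gene with a mean of at least 8000.

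Cs9g09450, on chromosome 9 (6612888 to 6614509, minus strand), had 8434 and 7667 at low pH, against 7944, 8065 and 7404 in controls. Cs2g23520, on chromosome 2 (22082253 to 22085826, minus strand), had 7709 and 7797 at low pH, against 7447, 7945 and 8480 in controls. In both genes the groups overlapped; Cs9g09450 shares its locus with a gene on the opposite strand that had 8.31% of its mean. Per length of transcript the order was another. The authors' FPKM (fragments per length of model, on a library scale that was not stated) averaged 597 for Cs9g09450, 272 for Cs2g23520 and 217 for Cs8g05340. Over the whole set the mean FPKM ran from 9.08 to 597 with a median of 44.2, against a median of 56.3 in the other 3900 genes.

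Counting noise alone would leave nearly every gene of this abundance inside the ceiling. If each of the 4074 genes held a single level and varied only as Poisson counts do, 4064 would meet the rule, or 99.8%, where 174 did. Variation between libraries within a treatment already removed most of them. The 2 low pH libraries were within the ceiling of each other in 1969 genes, and the 3 control libraries in 1389, where counting noise alone gives 4074 and 4069. A highest to lowest ratio tends to be larger over 3 libraries than over 2, so these numbers do not compare the spread of the treatments. Low pH and control libraries were each within the ceiling in 820 genes, and the 174 steady genes were 21.2% of these. In the other 646 the libraries of each treatment were within the ceiling but all 5 together were not. The means of the treatments were within that factor in 188 of the 646, or 29.1%. They were within it in 362 of the 820, which include the 174 that meet it by the rule. In all 4074 genes they were within it in 1279, or 31.4%. The 4074 still hold the 174 and the 646 do not, so these shares are not read against each other.

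Steady genes were a smaller, not a larger, share of genes at higher abundance, though counting error shrinks as counts grow. They were 5.40% of the 2166 genes with a mean of 1000 to 2000 (exact 95% binomial interval 4.49 to 6.44), 3.71% of the 1186 genes at 2000 to 4000 and 2.59% of the 463 genes at 4000 to 8000. Of the 259 genes above 8000 they were 0.386%, with an interval of 0.00977 to 2.13. Below the limit, at 500 to 1000, 139 of 2844 genes or 4.89% were within the ceiling, where counting noise alone gives 92.2%. The intervals cover counting of genes only, and genes are not independent.

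The same decline was seen inside each treatment. From the class of 1000 to 2000 to that above 8000, the share of genes within the ceiling between the low pH libraries fell to 29.3%, against 50.8% in the lower class. Among the control libraries it fell to 11.2%, against 39.6%. The median size of the log2 ratio of low pH to control was 0.61 in the class above 8000 and 0.31 in the class of 1000 to 2000.

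**Figure D3:**
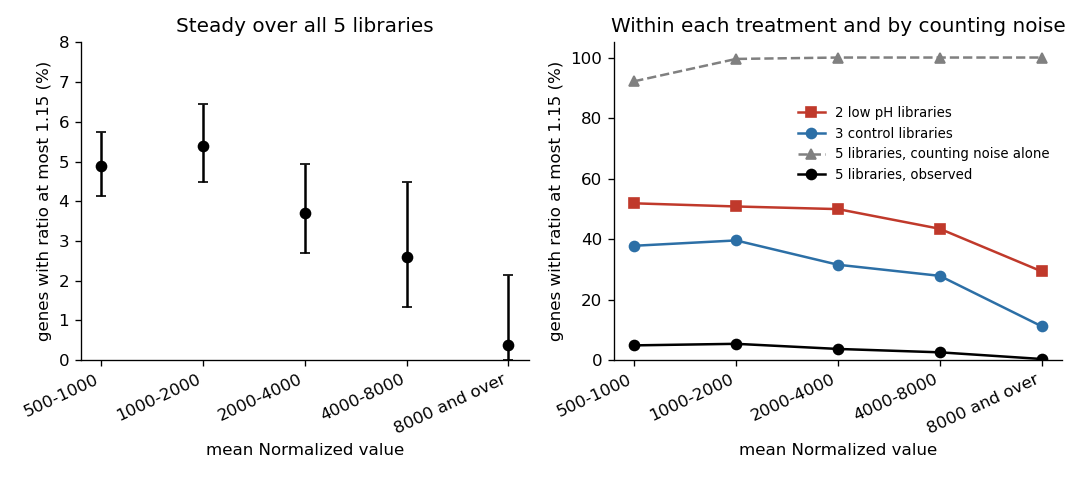
Percentage of genes whose highest library is at most 15% above the lowest, by class of mean Normalized value. The ratio is over 2 low pH, 3 control or 5 libraries, so the curves do not compare the spread of the treatments. Left, over all 5 libraries with exact 95% binomial intervals; right, the same (black) beside the 2 low pH libraries (red), the 3 control libraries (blue) and the share that counting noise alone gives over 5 libraries (grey), which is 92.2% in the lowest class and at least 99.5% above it.

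Genes were also chosen on 4 libraries and read in the library left out. With the same limits 294 to 430 genes qualified, and between 40.5% and 59.2% of them stayed within the ceiling once the fifth library was added. Those that stayed were the 174 steady genes, or 175 genes with control replicate 1 left out, so this share restates the rule. With low pH replicate 2 left out, 263 of 430 chosen genes, or 61.2%, had a value within the same factor of the mean of the other libraries. Over all genes of that abundance 31.8% did. For the other libraries these shares were 76.9% to 82.3% of the chosen genes and 46.6% to 54.8% of all. The median size of the log2 distance to that mean was 0.11 to 0.16 in the chosen genes, against 0.18 to 0.34 in all genes of that abundance, and smaller in the chosen genes for each of the 5 libraries left out. These choices share 3 of their 4 libraries. The mean from which the distance is taken is also more exact in genes chosen to vary little over those 4. The 174 steady genes, part of each choice, had a median Normalized value of 1716, against 1923 in the other genes of that abundance. How much these add to the difference was not tested.

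The low pH libraries were also read for genes whose ratio was taken over the controls alone. The minimum mean of 1000 was still taken over all 5 libraries, so low pH values had a part in the choice. Of the 1389 genes within the ceiling over the 3 control libraries, both low pH libraries lay within that factor of the control mean in 338, or 24.3%. Of the genes of that abundance that were not, 397 or 14.8% did. The median size of the log2 ratio of low pH to control was 0.28 in the control-steady genes and 0.40 in the others. The control mean, from which the distance is taken, is less exact in genes that vary among controls. The groups also differ in abundance, as control-steady genes were 39.6% of the class of 1000 to 2000 and 11.2% of that above 8000. How much these add to the difference was not tested.

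FPKM gave a second reading of the same genes, since it did not follow the count alone. In each library the FPKM multiplied by the model length and divided by the count ranged, relative to its median, from 0.727 at the lowest 5th percentile to 1.87 at the highest 95th percentile over genes with a mean of at least 1000. Of the 174 genes steady by Normalized value, 102 were also within the ceiling by FPKM and 72 were not. With counts scaled by library totals, 33 were within it. The highest FPKM ratio in the set was 1.99, and 8 genes were above 1.5.

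FPKM per normalized count, a quantity whose denominator is the value the rule used, was compared between the treatments with limma over 15521 genes. In 27 steady genes, or 15.5%, it differed at least by the factor of the ceiling, with a Benjamini-Hochberg adjusted p under 0.05, 23 of them higher and 4 lower at low pH. The same was true of 12.5% of the 4074 genes with a mean of at least 1000, 399 higher and 112 lower, and nothing is read from the steady genes' count. At an adjusted p under 0.05 alone, with no limit on size, it was 109 steady genes, or 62.6%, beside 66.3% of all genes of that abundance, so the count of 27 rests on the limit on size. With that limit and without low pH replicate 2 the count was 16, or 9.20%, beside 8.76% of all genes of that abundance. Without control replicate 3 it was 15, or 8.62%, beside 6.97%.

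Cs4g17010, on chromosome 4 (16686492 to 16705763, plus strand), had the largest difference. Its Normalized values were 1515 and 1649 at low pH, against 1711, 1645 and 1582 in controls, while its FPKM was 24.7 and 27.6 at low pH, against 16.9, 13.9 and 16.4 in controls. The Normalized values overlapped between the treatments and the FPKM values did not. Its FPKM per count was higher at low pH by 0.78 on the log2 scale (SE 0.10).

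Cs2g05540, on chromosome 2 (3021905 to 3032641, plus strand), had Normalized values of 3574 and 3901 in low pH leaves, against 3851, 4046 and 3520 in control leaves. Its FPKM was 61.5 and 69.6 at low pH, against 41.8, 42.5 and 40.3 in controls, and its FPKM per count was higher at low pH by 0.67 on the log2 scale (SE 0.05). Of the 4 genes called lower at low pH, the 2 with the largest differences were Cs6g03800 and Cs7g27610. Cs7g27610, on chromosome 7 (28333371 to 28336325, minus strand), had an FPKM of 90.5 and 93.5 in low pH leaves, against 109, 113 and 120 in control leaves, and a log2 difference per count of -0.28 (SE 0.03). Cs6g03800, on chromosome 6 from 4295410 to 4300094, had 45.9 and 38.5 FPKM at low pH, against 53.4, 57.7 and 48.0 in controls, a log2 difference per count of -0.30 (SE 0.07). The Normalized values were 2316 and 2310 at low pH, against 2288, 2397 and 2451 in controls, for Cs7g27610, and 1586 and 1547 at low pH, against 1683, 1681 and 1493 in controls, for Cs6g03800. Both overlapped between the treatments, and the locus of Cs7g27610 overlaps a gene on the opposite strand that had 45.6% of its mean. How the authors' FPKM weighted a gene's reads and transcripts was not stated, and the cause of these differences was not tested.

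The 5 steadiest genes were not all as close by FPKM. Cs4g17410 had an FPKM of 86.6 and 93.7 in low pH leaves, against 76.3, 76.6 and 76.9 in control leaves, so that both low pH values lay above every control. Cs6g21650 had 44.9 and 43.2 FPKM at low pH, against 44.3, 44.1 and 44.3 in controls, with a highest to lowest FPKM ratio of 1.04.

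**Figure D4:**
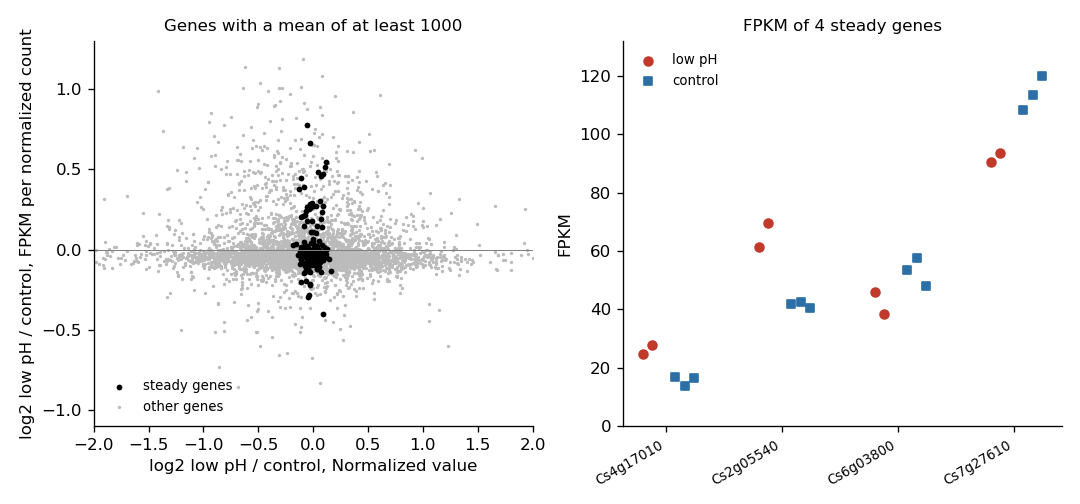
Left, log2 ratio of low pH to control in FPKM per normalized count (y) against that in Normalized value (x) for genes with a mean of at least 1000, steady genes in black; 54 genes outside the axes are not drawn. Right, FPKM in each low pH (red circles) and control (blue squares) library of the 4 steady genes described, where low pH lies above control in Cs4g17010 and Cs2g05540 and below it in Cs6g03800 and Cs7g27610.

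At the main thresholds the steady genes had models of ordinary length. The median model length was 2482.5 bases in the steady genes and 2493 bases in the other 3900 genes with a mean of at least 1000, with quartiles of 1787 and 3612 bases against 1771 and 3434. The longest model, orange1.1t00513 with 8579 bases, lies on an unplaced sequence from 6216617 to 6231359. Its Normalized values were 1778 and 1912 at low pH, against 1953, 2012 and 1754 in controls. The shortest, Cs3g19230 with 614 bases on chromosome 3 from 22548849 to 22551047, had 1111 and 1164 at low pH, against 1109, 1083 and 1133 in controls. Both overlapped between the treatments.

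At the same thresholds their loci, introns included, were longer. The median locus was 5506.5 bases in the steady genes and 4792 bases in the others, and 2.22 times the model length against 1.89 times. Within the class of 1000 to 2000 the median locus was 5593 bases in the steady genes and 4789 bases in the others, with a median Normalized value of 1349 and 1373. With genes split at the quartiles of locus length, steady genes were 3.04% of those with the shortest loci, 4.03% and 4.81% of the next groups and 5.20% of those with the longest. Split by model length, the groups gave 4.22%, 4.42%, 3.63% and 4.81% from shortest to longest, with no trend. In all, 3 steady genes, or 1.72%, had a model as long as the locus and so no intron, against 220 or 5.64% of the others. These were Cs1g21450, Cs8g14980 and orange1.1t01074. These are descriptions of a set chosen on its values, given without a test over genes.

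**Figure D5:**
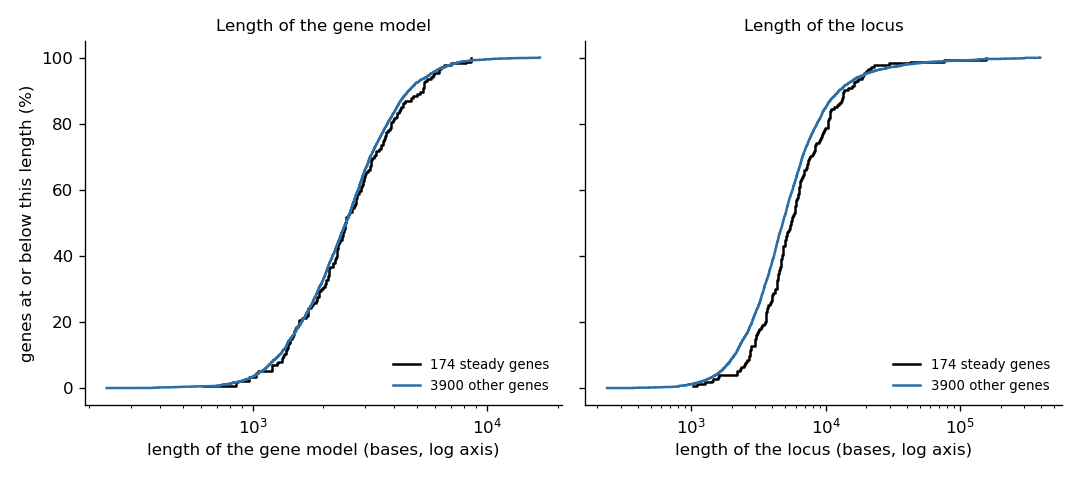
Percentage of genes at or below each length, for 174 steady genes (black) and 3900 other genes with a mean of at least 1000 (blue). The curves of model length lie close together, with medians of 2482.5 and 2493 bases, and that of locus length lies to the right in steady genes, with medians of 5506.5 and 4792 bases.

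Steady genes were found on every chromosome. They made up 3.59% of genes with a mean of at least 1000 on chromosome 7, the lowest of chromosomes 1 to 9, and 5.19% on chromosome 1, the highest. On unplaced sequences they were 3.55%. All exact 95% binomial intervals overlapped, as that of chromosome 7 ran from 2.14 to 5.61 and that of chromosome 1 from 3.20 to 7.91. The plus strand held 84 of the genes and the minus strand 90. None of the 782 loci labelled newGene was steady by this rule, of which 14 had a mean of at least 1000.

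Of 3558 pairs of neighbours among genes with a mean of at least 1000 on chromosomes 1 to 9, 5 were pairs of steady genes. Steady genes were 4.27% of all genes of that abundance, and no clustering is read from the count. The closest, Cs8g05340 and Cs8g05350, were 1313 bases apart, and no steady genes overlapped each other.

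In 24 steady genes, or 13.8%, the locus overlapped another listed gene, against 17.8% of the other genes of that abundance. In 22 of the 24 an overlapping gene lay on the opposite strand. An overlapping gene had at least 10% of the steady gene's mean in 18 of them, and more than the steady gene in 5. The use of strand in counting was not stated, and without it reads from the stretch that genes on opposite strands share cannot be told apart. Several steady genes, picked here after their values were seen, lay over a partner that varied. Cs7g18770 averaged 1549 with a highest to lowest ratio of 1.14, while Cs7g18780 on the opposite strand averaged 17009 with a ratio of 2.98. Cs2g19740 averaged 3219 with a ratio of 1.11, and Cs2g19680 on the same strand averaged 30145 with a ratio of 2.70. Cs9g01730 averaged 1425 with a ratio of 1.08, and Cs9g01720 on the opposite strand averaged 3399 with a ratio of 2.66. Leaving out all overlapping loci left 150 steady genes, or 4.47% of the 3357 genes that remained.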

How the data were processed

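Leaf RNA of sweet orange was sequenced in 2 low pH and 3 control libraries, grouped by sample title, with 17224516 to 21505928 counts each. The authors deposited per gene a raw count, an FPKM value and a Normalized value (a normalized read signal, the count times a factor that was constant within a library to 0.101%), per the file headers and the values. TopHat2, Cufflinks and DESeq are named, per the submitters' processing notes, with no role, version or genome build.

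Members and lists were chosen with earlier results of these data known. The number of steady genes to be had from counting noise was worked out by numerical integration of Poisson counts at each gene's mean level. Intervals are exact Clopper-Pearson. Low pH was tested against control with edgeR 4.0.16 quasi-likelihood (TMM, filterByExpr, Benjamini-Hochberg) on the deposited counts in R 4.3.3, with DESeq2 1.42.0 as an alternative. FPKM per count, log2(FPKM + 0.1) minus log2(Normalized + 1), was centred on each library's median and tested with limma 3.58.1 for genes with a mean FPKM of at least 1. This test, and the naming of the 2 highest and 2 lowest of the steady genes it called, were added after seeing the data. The scripts were tested on simulated data. Other named genes are the 5 with the smallest ratio, the 3 with the highest mean, the longest and shortest models and the 2 nearest each side of each threshold. Those with the extreme ratio of low pH to control, those without an intron and those in overlapping or neighbouring loci were chosen after their values were seen. Python 3.11.15, pandas 2.3.3, SciPy 1.17.1 and matplotlib 3.10.9 were used.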

Additional observations from a re-analysis of the deposited data

How the results depend on the processing

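The number of steady genes followed the thresholds. It was 174 at a ceiling of 15% above the lowest library and a mean of 1000, and 51, 393 and 634 at ceilings of 10%, 20% and 25%, or 1.252%, 9.65% and 15.6% of genes of that abundance. With a minimum mean of 500 it was 313, where counting noise alone gives 6685, and with 2000 it was 57 (2.99%), where counting noise gives 1908. Choosing on 4 libraries, which can only loosen the ceiling, gave 294 to 430 genes or 7.20% to 10.6%. The share of those kept in the library left out was 53.2% pooled over the 5 choices and 40.5% to 59.2% by library. Other scalings, FPKM and leaving out overlapping loci gave 150 to 196 genes. The median model length of 2482.5 bases was 2846 bases at a ceiling of 10% and 2832.5 bases with library totals. At the other settings where it was taken it was 2406 to 2732 bases. Locus length and the share of genes without an intron were not taken at other thresholds or scalings. The median size of the log2 ratio of low pH to control in control-steady genes, 0.28, was 0.30 with library totals. The edgeR test called 2615 genes and DESeq2 4036. Leaving out a library gave 74 to 2029 edgeR calls, with fewer samples in each fit, and 15 to 32 steady genes called for FPKM per count. With 2 and 3 libraries, differences near the spread between replicates could not be detected. No paired analysis was possible because the labels give no replicate numbers, and those used here were given in accession order.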

Other observations

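The rule applied to FPKM among genes with a mean Normalized value of at least 1000 found 164 genes, of which 102, or 62.2% of that set and 58.6% of the 174 steady genes, were also steady by Normalized value. The longest locus among the steady genes was that of Cs1g14140, which spans 154108 bases on chromosome 1 and overlaps 9 other listed genes, the most abundant of them, Cs1g14150, at 12.6% of its mean.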
